A study of Mus musculus with 4 samples.

Results

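The genes described here are the ribosomal protein genes of the mouse, followed in single nuclei of the spinal dorsal horn. Members were taken by symbol from the gene list of the count matrices: Rpl or Rps followed by a digit, together with Rpsa, Rplp0, Rplp1 and Rplp2, and without symbols holding -ps, Rps6k kinases and Rps19bp genes. The rule gave 85 of 32285 genes, of which 52 belong to the large subunit and 33 to the small subunit, and no measured value entered it. With 50 UMIs (counted RNA molecules) over the pair of libraries compared, 81 or 82 members could be compared in each contrast. Rpl3l, Rpl39l and Rpl10l never reached that number, and Rps27rt reached it in 2 of the 4 contrasts.

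The study asked what loss of Gpr37l1, a G protein-coupled receptor of astrocytes, does in the dorsal horn with and without spared nerve injury (SNI), a surgical model of neuropathic pain. The 4 libraries are Gpr37l1+/+ naive, Gpr37l1-/- naive, Gpr37l1+/+ at 1 day after SNI and Gpr37l1-/- at 1 day after SNI, and 4 values in a row below follow this order. All 4 came from microdissected dorsal horn, whose nuclei were isolated on a sucrose cushion and counted with 10x 3' chemistry; the sources used here do not give age, sex, strain or the number of animals pooled. Groups follow the sample titles, and the treatment tag goes against the title for 2 libraries, Gpr37l1-/- naive and Gpr37l1+/+ SNI. With 1 library per group no test was possible, each ratio describes these libraries, and intervals are 95% intervals for counting error only.

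Ribosomal proteins are the protein part of the ribosome: the small subunit reads the messenger, the large subunit joins amino acids, and the acidic stalk of the large subunit (Rplp0, Rplp1 and Rplp2) recruits the elongation factors. Their messages are short, very abundant, exported quickly and translated in the cytoplasm, and they share a 5' terminal oligopyrimidine tract through which mTORC1 signalling sets their translation. Nuclei isolated from tissue keep some cytoplasmic RNA at their surface, so that ribosomal protein UMIs in such libraries come from nuclear and from adhering cytoplasmic messages alike.

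The libraries held 19942 to 37552 barcodes with 1284 to 1509 UMIs at the median, and each pair shared 162 to 293 barcode sequences. Gpr37l1, the targeted gene, gave 134, 0, 207 and 2 UMIs in astrocyte-like nuclei, which fits its genotype labels; no gene checks the injury labels. Of the kept nuclei, 64.2%, 53.4%, 48.0% and 62.8% lay in 6 classes named from marker genes: astrocyte-like, microglia-like, oligodendrocyte-like, oligodendrocyte precursor-like, and excitatory and inhibitory neuron-like. Markers of other classes were detected in every class, with 1 or none of 71 to 82 at 0, and their summed level was lowest in wild-type naive and highest in knockout naive nuclei in each of the 6 classes (4495 and 7051 CPM, the counts of a gene scaled to a total of 1000000, in astrocyte-like nuclei, 1810 and 2440 in inhibitory neuron-like nuclei). Malat1, a long RNA kept in the nucleus, took 9.13%, 4.40%, 8.29% and 6.32% of the UMIs, and its part and that of the marker levels in the results below were not tested.

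Nearly every nucleus had at least 1 ribosomal protein UMI, and the part of free RNA in this was not tested. Over all kept nuclei they made up 0.627%, 0.597%, 0.877% and 0.770% of the UMIs without mitochondrial genes, with a median of 10, 10, 15 and 11 per nucleus. At most 0.0157% of the nuclei of a library had none. The share was highest in oligodendrocyte-like nuclei in every library, at 1.14%, 0.933%, 1.44% and 1.32%. It was lowest in inhibitory neuron-like nuclei, at 0.572%, 0.499%, 0.734% and 0.685%, and excitatory neuron-like nuclei came next with 0.662%, 0.546%, 0.839% and 0.782%. Both neuronal classes therefore lay below all glial classes in each library, before nuclei were brought to one depth.

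Between these ends, astrocyte-like nuclei had 0.988%, 0.818%, 1.25% and 1.22%. Microglia-like nuclei had 0.927%, 0.701%, 1.20% and 0.873%. Oligodendrocyte precursor-like nuclei had 0.856%, 0.657%, 1.16% and 1.01%. In the naive libraries the order of the 6 classes was the same and no counting intervals of neighbours overlapped; in wild-type SNI the intervals of microglia-like (1.17% to 1.23%) and precursor-like nuclei (1.13% to 1.19%) overlapped, and in knockout SNI microglia-like nuclei lay below precursors.

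**Figure D1:**
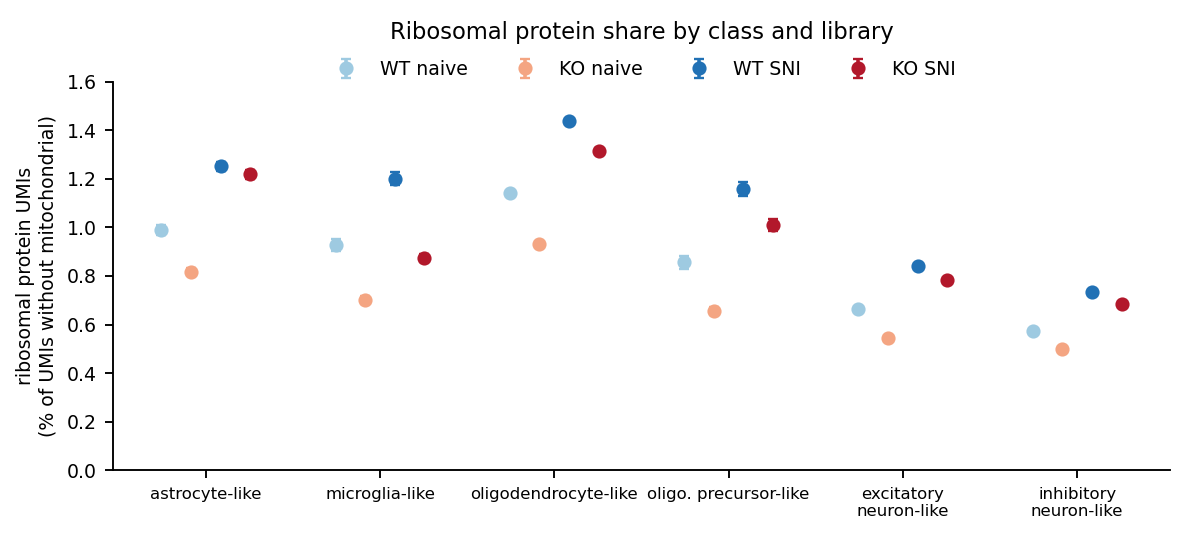
Ribosomal protein UMIs as a percent of the UMIs without mitochondrial genes (y axis) in 6 classes (x axis) and 4 libraries (colours); bars are exact binomial 95% intervals for counting error. In every class the SNI point lies above the naive point of the same genotype, and oligodendrocyte-like nuclei (0.933% to 1.44%) lie above inhibitory neuron-like nuclei (0.499% to 0.734%).

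Most single members had the same highest and lowest class. Among 81 members whose 4 libraries gave 200 UMIs or more together, 78 were highest in oligodendrocyte-like nuclei and 3 (Rps9, Rpl10a and Rpl7l1, the first 2 named here after their values were seen) in microglia-like nuclei, while 80 were lowest in inhibitory neuron-like nuclei. The log2 range from the lowest to the highest class was 0.68 to 1.18, with a median of 0.96. Rplp0, the stalk base, had the widest range, from 17.7 CPM in inhibitory neuron-like to 40.2 CPM in oligodendrocyte-like nuclei. Rps6, the small subunit protein phosphorylated by the Rps6k kinases, went from 35.7 to 79.3 CPM. Rps27a, made as a fusion with ubiquitin, went from 99.8 to 221 CPM, and Rpl26 from 84.2 to 187 CPM. Rpl36a (36.9 to 81.1 CPM) and Rps3 (40.2 to 87.2 CPM) completed the 6 widest.

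The exception at the lower end was Rpl7l1, a paralogue of Rpl7 that is known from early steps of large subunit assembly. Averaged over the libraries, its level was highest in microglia-like nuclei, at 23.3 CPM. It lay between 14.5 CPM (astrocyte-like) and 17.6 CPM (precursor-like) in the 5 other classes. The libraries differed: microglia-like nuclei had 31.3, 14.8, 36.4 and 10.6 CPM, from 19, 14, 22 and 13 UMIs. In knockout naive, precursor-like nuclei were the highest, at 17.6 CPM, and in knockout SNI microglia-like nuclei were the lowest class. Rpl7 itself went from 53.9 CPM in inhibitory neuron-like to 112 CPM in oligodendrocyte-like nuclei. In these averages the parent followed the common class order and the paralogue did not. The few UMIs of the paralogue in microglia-like nuclei leave its own class order uncertain.

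Depth went with these class levels. Median UMIs per nucleus were 729 to 948 in oligodendrocyte-like and 1458 to 1939 in inhibitory neuron-like nuclei, and within a class the ribosomal protein share was lower in deeper nuclei. Wild-type naive oligodendrocyte-like nuclei under 1000 UMIs had 1.34%, those from 1000 to 2000 had 0.815% and those from 2000 to 4000 had 0.507%. In wild-type naive excitatory neuron-like nuclei the same steps were 1.08%, 0.759% and 0.489%, and 0.313% from 4000. Thinning each nucleus to 1000 UMIs left out the shallower nuclei, here and in all thinned values below. In wild-type naive these were 3478 of 4499 oligodendrocyte-like and 120 of 2282 inhibitory neuron-like nuclei. Among the nuclei thinned, oligodendrocyte-like ones had 0.815%, 0.823%, 1.19% and 0.922%, and inhibitory neuron-like ones 0.621%, 0.545%, 0.809% and 0.722%. Astrocyte-like nuclei were then the highest in wild-type naive (0.868%) and knockout SNI (0.985%), and microglia-like nuclei the lowest in knockout SNI (0.664%). Excitatory neuron-like nuclei (0.6994%) lay above microglia-like ones (0.6895%) in wild-type naive. In knockout SNI both neuronal classes lay above microglia-like and precursor-like nuclei (0.7071%). In knockout naive and wild-type SNI both stayed below all glial classes.

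**Figure D2:**
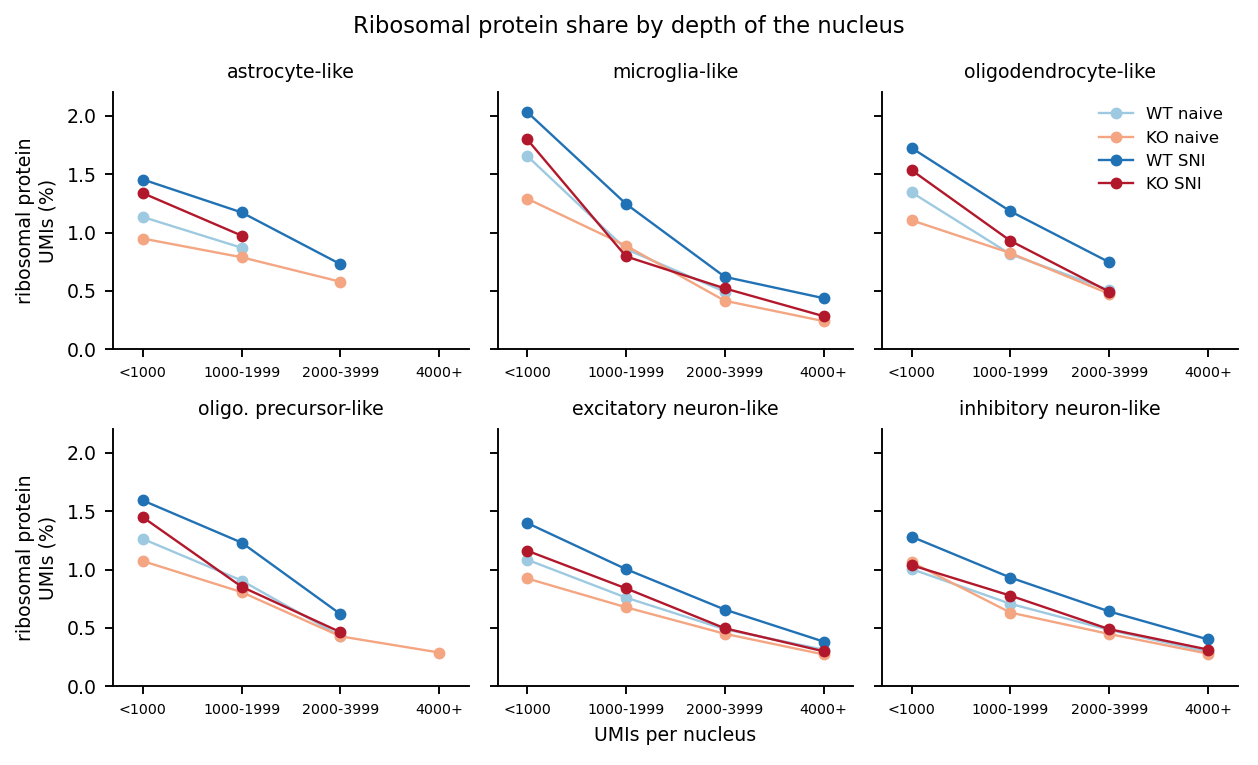
Ribosomal protein UMIs in percent (y axis) by UMIs per nucleus in 4 steps (x axis), in a panel per class with a line per library; points with under 20 nuclei are left out. The share declines with depth in each panel, and the wild-type SNI line lies above the wild-type naive line at each step shown.

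After nerve injury the ribosomal protein share of the wild-type library was higher in each of the 6 classes. The log2 ratio of SNI to naive was 0.34 (0.31 to 0.38) in astrocyte-like, 0.37 (0.32 to 0.42) in microglia-like, 0.33 (0.32 to 0.35) in oligodendrocyte-like and 0.44 (0.38 to 0.50) in precursor-like nuclei. In excitatory and inhibitory neuron-like nuclei it was 0.34 (0.32 to 0.36) and 0.36 (0.34 to 0.39). The mean of the 6 classes was 0.37 (0.35 to 0.38), or 1.29-fold. Glia and neurons thus had nearly one size of ratio. With predicted doublets kept, and at a coarser clustering, 5 of 6 classes were higher and the lowest class ratio was -0.15 and -0.20.

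The knockout libraries gave the same direction in each of the 6 classes, with a wider spread. The log2 ratio of SNI to naive was 0.58 (0.54 to 0.61) in astrocyte-like, 0.32 (0.27 to 0.36) in microglia-like, 0.50 (0.48 to 0.51) in oligodendrocyte-like and 0.62 (0.57 to 0.67) in precursor-like nuclei. Excitatory and inhibitory neuron-like nuclei had 0.52 (0.50 to 0.54) and 0.46 (0.44 to 0.48). The mean of 6 classes was 0.50 (0.48 to 0.51), or 1.41-fold. With nuclei thinned to 1000 UMIs this mean was 0.22, while that of the wild type was 0.47, so the order of the 2 genotypes depends on the handling of depth; the knockout SNI library had the lowest median depth of the 4.

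Between genotypes, the ribosomal protein share was lower in the knockout library than in the wild type in each class. In naive tissue the log2 ratio of knockout to wild type ran from -0.40 (-0.46 to -0.35) in microglia-like nuclei to -0.20 (-0.22 to -0.17) in inhibitory neuron-like nuclei, with a mean of -0.30 (-0.32 to -0.29) or 0.81-fold. After SNI it ran from -0.46 (-0.50 to -0.42) in microglia-like nuclei to -0.04 (-0.07 to -0.01) in astrocyte-like nuclei, with a mean of -0.17 (-0.18 to -0.16) or 0.89-fold. Thinned to 1000 UMIs, the naive mean was -0.12 and the SNI mean -0.36, and over all kept nuclei whatever their class the naive value was -0.07. The SNI mean was -0.08 with predicted doublets kept and -0.07 at a coarser clustering, where 1 class lay above 0. Mitochondrial UMIs, another RNA of the cytoplasm, were lower in the knockout as well, at 0.952%, 0.594%, 0.979% and 0.651% of the class total without them, averaged over the classes, and their part in the genotype ratios was not tested.

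Within single depth steps the direction after injury held in the wild type. The mean log2 ratio over classes was 0.34 under 1000 UMIs, 0.46 from 1000 to 2000 (6 of 6 classes higher in both steps), 0.45 from 2000 to 4000 (5 of 5) and 0.37 from 4000 (2 of 2). In the knockout these means were 0.36 and 0.17 (5 of 6 classes higher in both), 0.15 (5 of 5) and 0.18 (3 of 3). The knockout to wild type ratio after SNI was -0.20, -0.39, -0.41 and -0.44 at these steps, with no class above 0, whereas the naive ratio was -0.21, -0.10, -0.12 and -0.14, with 1 and 2 of 6 classes above 0 at the shallower steps.

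The ratios did not rest on a few abundant members. Rplp1, a stalk protein and the member with the most UMIs, had 319, 264, 390 and 351 CPM in the mean of the 6 classes. Rps21 and Rpl37 had means of 229.8 and 210.0 CPM over the libraries, and Rpl27a with 199 and Rpl37a with 194 were also among the highest. The 41 highest members held 68.6% of the ribosomal protein UMIs. Without the 10 highest members the injury ratios were 0.40 in the wild type and 0.54 in the knockout.

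For the wild type, 78 of 82 members were higher after SNI, with a median log2 ratio of 0.40, beside 8059 of 15562 genes higher and a median of 0.01 over all genes. By subunit, the medians were 0.36 for 49 large subunit members and 0.40 for 33 small subunit members. A 1.5-fold higher level was reached by 11 members, where 5.46% of all genes tested reached it, and a 1.5-fold lower level by none, where 5.04% did. The 11 were Rps3a1, Rplp0, Rpl13a, Rpsa, Rpl14, Rpl26, Rpl27, Rps7, Rpl8, Rps2 and Rpl10a. Thinned to 1000 UMIs the count was 24 (29.6% of members, beside 8.85% of all genes). With predicted doublets kept it was 4, or 4.88% of members, near the 4.15% of all genes.

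For the knockout, 81 of 81 members tested were higher after SNI, with a median of 0.49 beside 0.06 over all genes, of which 9266 of 16029 were higher. The medians were 0.48 for the large and 0.55 for the small subunit. A 1.5-fold higher level was reached by 28 members (13.7% of all genes) and a 1.5-fold lower level by none (2.79% of all genes). With nuclei thinned to 1000 UMIs the count was 5 in place of 28, or 6.17% of members where 11.8% of all genes passed, so here too the order of the genotypes turns. The injury comparisons in the 2 genotypes share no library: 5 of 81 members passed 1.5-fold in both, Rps3a1, Rplp0, Rpl14, Rpl26 and Rps2, where 1.24% of the 15436 genes tested in both did so.

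**Figure D3:**
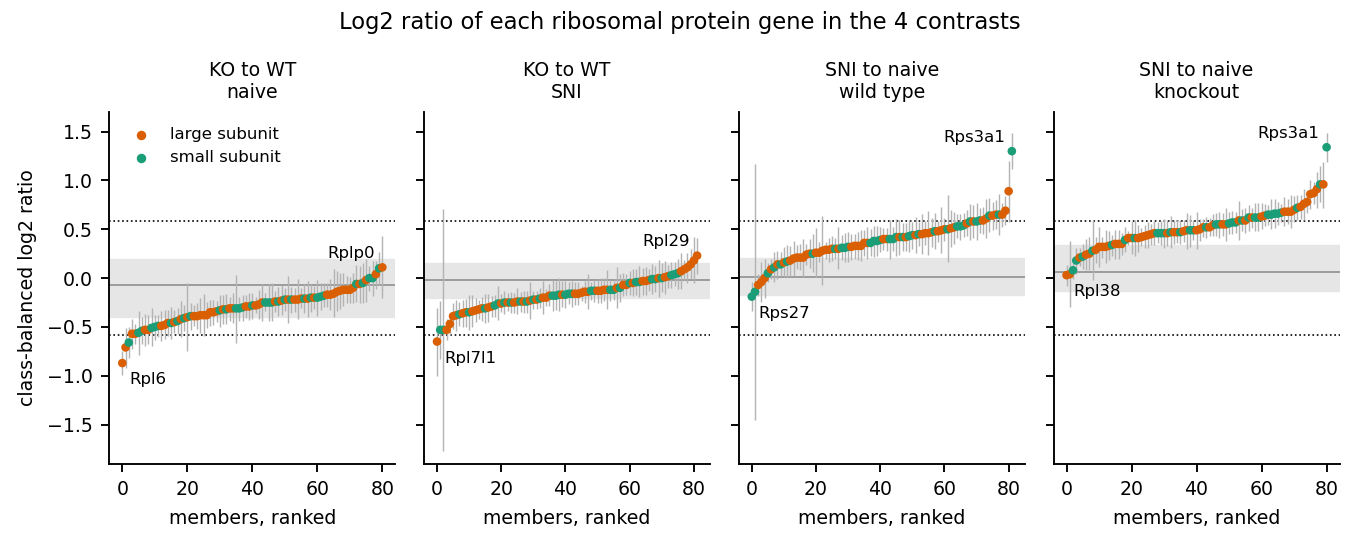
Class-balanced log2 ratio (y axis) of each member with at least 50 UMIs over the pair, ranked within each of the 4 contrasts (x axis), coloured by subunit, with 95% counting intervals; the grey band is the middle 50% of all genes, the grey line their median, and dotted lines mark 1.5-fold. The members lie mostly above the all-gene median after SNI (medians of 0.40 and 0.49) and below it in knockout to wild type (medians of -0.28 and -0.16).

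Between genotypes few single members passed the threshold. In naive tissue 77 of 81 members were lower in the knockout, with a median of -0.28 beside -0.07 over all genes. A 1.5-fold lower level was reached by 3 members, Rpl6, Rpl31 and Rps26, where 16.8% of all genes did so, and a 1.5-fold higher level by none (4.79% of all genes). After SNI 69 of 82 members were lower, with a median of -0.16 beside -0.02 over all genes. Rpl7l1 was the one member 1.5-fold lower (4.27% of all genes), and none was 1.5-fold higher (3.73% of all genes). The shares of members past 1.5-fold in these 2 contrasts lie below those of all genes, and most members differed by small amounts in one direction. With nuclei thinned to 1000 UMIs the share 1.5-fold lower after SNI was 8.64% of members beside 8.58% of all genes. The all-gene shares include genes near the count minimum, while most members had far more UMIs. The part of counting error in these shares was not tested.

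Rps3a1, a small subunit protein of the solvent side, stood apart from all other members after injury. It had 47.8, 46.3, 118 and 117 CPM, with 759, 1247, 1828 and 2136 UMIs behind these levels. Both SNI libraries lay above both naive libraries, and the 2 genotypes gave almost one value within each state. The log2 ratio of SNI to naive was 1.30 (1.12 to 1.49) in the wild type and 1.34 (1.19 to 1.49) in the knockout, or 2.46-fold and 2.52-fold. The knockout to wild type ratios were -0.05 (-0.25 to 0.15) and -0.01 (-0.14 to 0.12).

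Rps3a1 was higher after SNI in every class of both genotypes. In the wild type its log2 ratio was 1.24 in astrocyte-like, 1.35 in microglia-like, 1.14 in oligodendrocyte-like, 1.78 in precursor-like, 1.09 in excitatory and 1.35 in inhibitory neuron-like nuclei. In the knockout the same classes had 1.75, 0.88, 1.35, 1.36, 1.31 and 1.26. In excitatory neuron-like nuclei, for example, it had 42.7, 38.3, 90.9 and 94.9 CPM, and in microglia-like nuclei 52.7, 52.9, 134 and 97.4. Within each class both SNI levels were above both naive levels. Of the 15436 genes tested in both injury comparisons, 16 including Rps3a1 were at least as high as 1.30 in both.

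As a share of all ribosomal protein UMIs, Rps3a1 went from 0.558% and 0.670% in the naive libraries to 1.07% and 1.19% after SNI. Its change relative to the members' total was 0.94 in the wild type and 0.83 in the knockout on the log2 scale. Among 81 members with at least 200 UMIs in each library it alone passed 1.5-fold on this measure in either injury comparison, and in each of them 67 of 81 members stayed within 0.25. Rplp0 had 0.52 and 0.45 on the same measure. Across the alternatives in processing, the injury ratio of Rps3a1 had a range of 1.16 to 1.46 for wild-type and 1.11 to 1.42 for knockout libraries.

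Rplp0, the base on which the stalk is built, had the second-highest injury ratio in the wild type and stood level with Rps2 in the knockout. Its levels were low, at 20.0, 21.7, 37.1 and 42.1 CPM, with the SNI libraries above the naive ones. The injury ratio was 0.89 (0.57 to 1.20) for wild-type and 0.96 (0.72 to 1.19) for knockout libraries. Both were above 0 in 6 of 6 classes. Its stalk partners did not share that size. Rplp1 had 0.29 (0.20 to 0.37) and 0.41 (0.34 to 0.48), and Rplp2, with 125, 98.0, 154 and 138 CPM, had 0.30 (0.17 to 0.43) and 0.50 (0.38 to 0.61). Rplp0 was also the member with the highest naive knockout to wild type ratio, 0.11 (-0.20 to 0.43), whose interval includes 0.

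Other members with a high injury ratio in both genotypes were Rps2 and Rpl14. Rps2, a protein of the entry side of the small subunit, had 46.8, 31.7, 73.6 and 61.7 CPM and ratios of 0.65 (0.44 to 0.86) and 0.96 (0.78 to 1.15). Rpl14 had 90.8, 77.7, 147 and 117 CPM and ratios of 0.69 (0.54 to 0.84) and 0.59 (0.46 to 0.72). Both were above 0 in 6 of 6 classes in both genotypes. Rpsa, which is known both as a ribosomal protein and as a laminin receptor, had 66.6, 71.5, 104 and 105 CPM, with ratios of 0.64 (0.47 to 0.82) and 0.55 (0.41 to 0.68). Rpl13a, known from translational silencing in inflammation, had 88.0, 90.2, 137 and 125 CPM and ratios of 0.64 (0.49 to 0.78) and 0.47 (0.35 to 0.59).

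**Figure D4:**
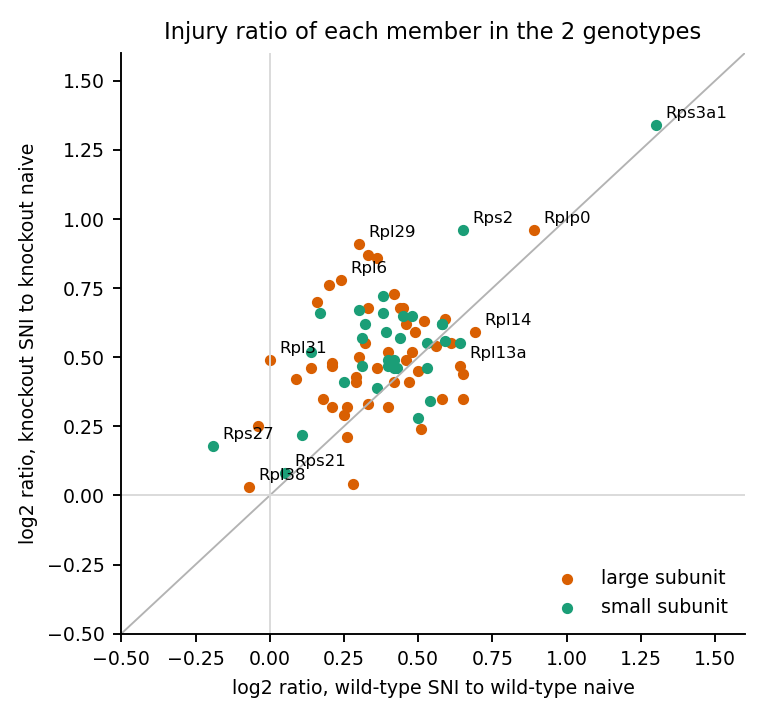
Class-balanced log2 ratio of SNI to naive for each member with at least 50 UMIs in both pairs, in the wild type (x axis) and the knockout (y axis), coloured by subunit; the line marks equal ratios. Rps3a1 (1.30 and 1.34) lies apart from the others on both axes, Rplp0 (0.89 and 0.96) has the next ratio on the wild-type axis, and Rps27 and Rpl38 lie near 0.

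Across the 81 members with at least 200 UMIs in each library, the 2 injury ratios had a Pearson correlation of 0.52 and a Spearman correlation of 0.30, as a description over genes that share libraries. Without Rps3a1 and Rplp0 they were 0.34 and 0.24. The 2 genotype ratios, naive and SNI, had 0.27 and 0.26.

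A few members had injury ratios near or below 0 in the wild type. The 4 below 0 there were Rps27, Rps27rt, Rpl38 and Rpl35, the last named after its value was seen, at -0.04 (-0.24 to 0.16). Rps27, a small subunit protein with a zinc finger, had 118, 81.2, 103 and 91.9 CPM, highest in wild-type naive. Its injury ratio was -0.19 (-0.34 to -0.04) in the wild type and 0.18 (0.04 to 0.31) in the knockout. Thinned to 1000 UMIs, the wild-type ratio was 0.05. Rpl38, a large subunit protein known for its part in translating Hox messages, had 195, 149, 185 and 152 CPM, and its ratios of -0.07 (-0.18 to 0.04) and 0.03 (-0.08 to 0.13) both have 0 in their intervals; thinned, the knockout ratio was -0.30. Rps21 had 244, 206, 253 and 217 CPM and ratios of 0.05 (-0.04 to 0.15) and 0.08 (-0.01 to 0.16), the latter -0.10 when thinned. Relative to the members' total these 3 were lower after SNI, by -0.56 and -0.32 for Rps27, -0.44 and -0.48 for Rpl38 and -0.31 and -0.43 for Rps21.

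Rpl6, a large subunit protein, carried the widest gap between the naive libraries. It had 183, 100.2, 216 and 172 CPM, so that knockout naive lay below the 3 other libraries. The naive knockout to wild type ratio was -0.87 (-0.99 to -0.75), and it was between -0.96 and -0.71 in each of the 6 classes. After SNI the ratio was -0.32 (-0.42 to -0.22). The injury ratio in the knockout, 0.78 (0.67 to 0.89), uses the same knockout naive library, and in the wild type it was 0.24 (0.13 to 0.35).

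Rpl31 and Rps26 were also lower in knockout naive. Rpl31 had 58.0, 35.4, 58.0 and 49.6 CPM and a naive ratio of -0.71 (-0.92 to -0.51), with no class above 0. Rps26 had 88.1, 55.8, 99.4 and 88.0 CPM and a naive ratio of -0.66 (-0.82 to -0.50), again with no class above 0. Neither passed 1.5-fold with nuclei thinned to 1000 UMIs, at -0.48 for Rpl31 and -0.52 for Rps26, or in nuclei with at least 1000 UMIs and 500 genes, at -0.53 and -0.49, while Rpl6 passed in both, at -0.66 and -0.71. After SNI the Rpl31 and Rps26 knockout to wild type ratios were -0.23 (-0.42 to -0.04) and -0.18 (-0.33 to -0.03).

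**Figure D5:**
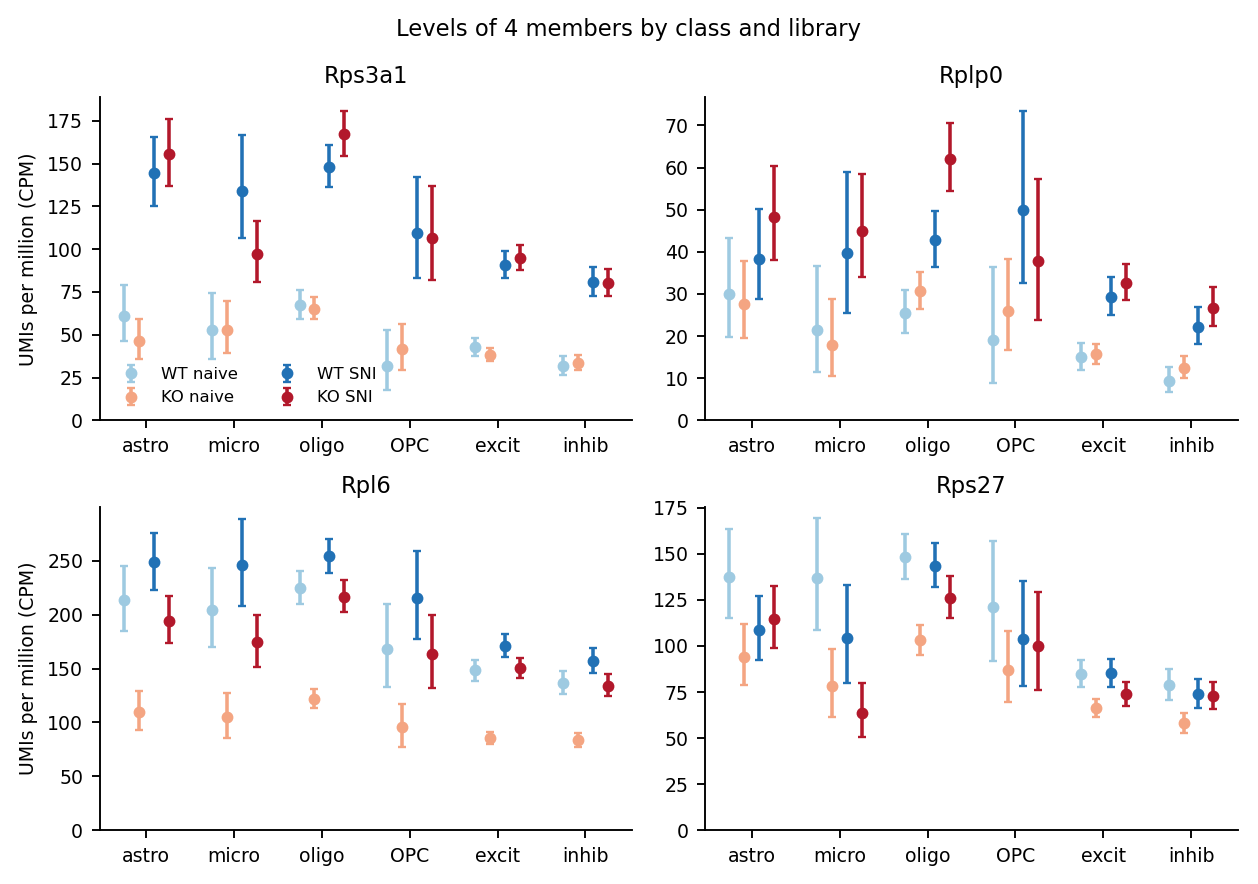
Levels in CPM (y axes, from 0) of Rps3a1, Rplp0, Rpl6 and Rps27 in 6 classes (x axes; OPC is oligodendrocyte precursor) and 4 libraries (colours), with exact Poisson 95% intervals. Rps3a1 is higher in both SNI libraries in each class, and Rpl6 is lowest in knockout naive in each class.

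Rpl29 and Rpl18 stood at the upper end of the genotype comparison after SNI. Rpl29 had 47.4, 36.5, 58.4 and 68.4 CPM and a ratio of 0.23 (0.04 to 0.41), which was above 0 in 5 of 6 classes; in naive tissue the ratio was -0.38 (-0.59 to -0.16). Rpl18 had 70.4, 52.8, 80.8 and 89.1 CPM and ratios of 0.14 (-0.01 to 0.30) after SNI and -0.42 (-0.60 to -0.23) in naive tissue. At the lower end after SNI were Rpl7l1 with -0.65 (-1.00 to -0.31) and Rps27l with -0.53 (-0.83 to -0.23). Rpl41, named here after its value was seen, had -0.53 (-0.63 to -0.42).

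The 7 paralogues named after another member differed widely in level. Rpl22l1 had 95.4, 79.2, 114 and 96.5 CPM, above its parent Rpl22 with 40.3, 39.8, 55.6 and 55.7 in all 4 libraries. Rpl22 had knockout to wild type ratios of -0.02 (-0.24 to 0.20) and 0.00 (-0.19 to 0.19), and Rpl22l1 of -0.27 (-0.42 to -0.12) and -0.24 (-0.37 to -0.10). Rpl36al, an intron-poor copy of Rpl36a, had 65.8, 50.7, 87.9 and 67.5 CPM, beside 59.1, 49.7, 68.3 and 62.0 for Rpl36a. Rpl7l1 (18.4, 13.9, 22.4 and 14.3 CPM) and Rps27l (18.9, 15.2, 26.8 and 18.5 CPM) were far below Rpl7 and Rps27.

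The copies known from muscle or testis were close to absent. Rpl3l, the muscle form of Rpl3, gave 37 UMIs over the 4 libraries, Rpl39l gave 7 and Rpl10l gave 1. Their parents Rpl3, Rpl39 and Rpl10 gave 4877, 6621 and 4371 UMIs. The coding sequences are 74.8% identical between Rpl3 and Rpl3l, 85.0% between Rpl39 and Rpl39l and 84.7% between Rpl10 and Rpl10l. Rpl22 and Rpl22l1 are 72.7% identical, Rps27 and Rps27l 76.2%, Rpl7 and Rpl7l1 67.2%, and Rpl36a and Rpl36al 87.7%.

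Rps27rt is a different case, an intronless copy of Rps27 with 92 UMIs in all. Its coding sequence is 100% identical to that of Rps27 over 252 bases, so UMIs of the 2 genes cannot be told apart there. The level of Rps27rt is therefore uncertain, and the same limit holds for the level and ratios of Rps27. The likeness reaches past the coding part, to a stretch of at least 29 bases at the RefSeq starts, which runs to the end of the Rps27 window shown. Both are shown from 30 bases before the start to 30 after, on the minus strand, with the stretch they share in capitals (RefSeq, GRCm38.p6, Rps27 at chr3:90213619-90213678 and Rps27rt at chr9:114982710-114982769).
Rps27: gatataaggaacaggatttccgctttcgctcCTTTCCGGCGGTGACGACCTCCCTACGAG
Rps27rt: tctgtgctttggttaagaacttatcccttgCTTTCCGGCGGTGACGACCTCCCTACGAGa

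The bases before the start differ between the 2 genes. Rps27rt had 1.73, 0.743, 1.57 and 1.08 CPM, and its ratios of -0.53 (-1.77 to 0.71) for knockout to wild type after SNI and -0.14 (-1.45 to 1.17) for wild-type injury are too uncertain to give a direction (0.98 after SNI when thinned).

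The start regions of the members were compared with those of other genes, and their part in the ratios was not tested. RefSeq start windows of 250 bases before to 50 after the start were at hand for 65 members and 27025 genes in all. The letters CCGGAAG, the core that ETS-family factors recognise, lay on either strand in 26 of the 65 members and in 2683 genes in all (9.93%). TATAAA was in 7 members (10.8%) and in 15.7% of all genes. An unbroken run of at least 8 C or T letters within 40 bases of the start, as an oligopyrimidine tract gives, was in 49 members (75.4%) and in 32.6% of all genes. The other strand of CCGGAAG reads CTTCCGG, so a pyrimidine run and this motif can share letters. A match is a description of letters, not of a bound site.

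CCGGAAG stood near the start of the member with the highest injury ratio (Rps3a1), of 2 members with ratios near 0 (Rpl38 and Rps21) and of the member lowest in knockout naive (Rpl6). The windows run from 30 bases before to 30 after the RefSeq start in GRCm38.p6, with CCGGAAG in capitals; they are Rps3a1 at chr3:86142639-86142698 (minus strand), Rpl38 at chr11:114668550-114668609, Rps21 at chr2:180257349-180257408, the first of its 2 RefSeq starts, and Rpl6 at chr5:121204471-121204530.
Rps3a1: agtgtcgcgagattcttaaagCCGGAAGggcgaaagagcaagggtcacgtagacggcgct
Rpl38: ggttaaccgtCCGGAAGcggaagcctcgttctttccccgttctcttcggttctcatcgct
Rps21: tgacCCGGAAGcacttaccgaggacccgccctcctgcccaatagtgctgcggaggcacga
Rpl6: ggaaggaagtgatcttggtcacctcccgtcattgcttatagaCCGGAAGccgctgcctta

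Rps3a1 and Rplp0 lacked a pyrimidine run of 8 letters, with at most 6 and 7. So did other members, such as Rpsa with 7, Rpl24 with 6 and Rpl41 with 4. Shorter tracts were not counted. In the annotation Rps3a1 spans chr3:86137940-86142702 (GENCODE vM21, GRCm38), with 6 exons on the minus strand, and Rplp0 spans chr5:115559467-115563727 with 7 exons. The 85 members lie on 19 chromosomes and span 3289 bases at the median.

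Other genes of translation were followed from fixed lists. Of 21 translation factors whose messages also begin with an oligopyrimidine tract, 20 were higher after SNI in the wild type (median 0.44) and 18 in the knockout (median 0.19). Tpt1, the translationally controlled tumour protein, had ratios of 0.70 (0.59 to 0.80) and 0.45 (0.37 to 0.54).

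Noncoding hosts of snoRNAs, the guides of ribosomal RNA modification, were higher after SNI in 11 of 13 in the wild type and 9 of 14 in the knockout, with medians of 0.37 and 0.39. Snhg3 was an exception with 68.1, 61.4, 54.8 and 29.4 CPM, and ratios of -0.31 (-0.50 to -0.12) and -1.06 (-1.27 to -0.86). The 26 genes of ribosome assembly had medians of 0.08 and 0.06, and the 16 tested genes of mTORC1 and translation control 0.07 and -0.05. The all-gene medians were 0.01 and 0.06.

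Another 2 lists of short, abundant cytoplasmic messages were higher after SNI too. Nuclear-encoded oxidative phosphorylation genes were higher after SNI in 69 of 75 in the wild type and 65 of 75 in the knockout (medians of 0.24 and 0.20), and 20 abundant messages such as Actb and Tmsb4x had medians of 0.42 and 0.57. Tmsb4x, which binds actin monomers, had 365, 408, 784 and 661 CPM. Proteasome genes were higher in 32 of 36 in the wild type and 25 of 36 in the knockout (medians of 0.26 and 0.15). The 13 mitochondrial genes had lower medians of 0.02 and 0.14, with 8 and 11 higher. Genes other than the members that span under 5 kb had medians of 0.22 and 0.20, those over 50 kb -0.02 and -0.02. In naive knockout to wild type, oxidative phosphorylation genes had a median of -0.31 and the genes under 5 kb -0.16. The part of cytoplasmic RNA content and of gene length in the ratios of the ribosomal protein genes was not tested.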

How the data were processed

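Raw UMI counts per gene and barcode were deposited by the authors for 4 single-nucleus libraries, made with Cell Ranger 7.0.0 per the file headers. GRCm38, Seurat 4.3.0 and R 4.3.0 are named in the submitters' processing notes; the sources used here do not give the intron setting or annotation release. Barcodes with at least 300 genes and at most 5% mitochondrial UMIs were kept, and doublets predicted by scrublet were removed (3.03%, 11.3%, 9.82% and 9.34%), leaving 102076 of 112746. Nuclei were clustered with scanpy 1.11.5 and leidenalg 0.10.2 (3000 variable genes without the members and lists, 40 components, resolution 1) and named from marker lists; the naming thresholds were set after the clusters were seen, and kept nuclei outside the 6 classes, in other or unnamed clusters, were left out.

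Levels are UMIs of a gene scaled to a class total of 1000000 UMIs without mitochondrial genes (CPM), averaged over 6 classes with equal weight. Intervals are exact binomial or Poisson within a class and their propagation in means. Genes with at least 50 UMIs over a pair were compared, and 1.5-fold counted as past the threshold; the calculation was checked on simulated data. The text names the 6 highest members, the 3 highest and 3 lowest in each contrast, paralogues with their parents, the stalk genes, Rpsa, Rps6 and Rps3a1, the 6 that vary most between classes, and in other lists genes among the 3 with the largest ratio. Some items that this rule names are not reported here. The members and lists were chosen with earlier results of these data known. Coding sequences were aligned with Biopython 1.88, spans were taken from GENCODE vM21 and start windows from RefSeq GRCm38.p6. Alternatives changed depth, doublets, filters, clustering, denominator and the count minimum; 2 were added after seeing the data. The thinned alternative holds only nuclei that reached 1000 UMIs.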

Additional observations from a re-analysis of the deposited data

Results flagged for a closer look

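Rps27 and Rpl29 had opposite signs under one contrast in the 2 groups compared, with each group represented by 1 library. The log2 ratio of SNI to naive for Rps27 was -0.19 in the wild type and 0.18 in the knockout, and the difference was not tested. The log2 ratio of knockout to wild type for Rpl29 was -0.38 in naive tissue and 0.23 after SNI, and the difference was not tested. The Rps27 pair shares no library between its ratios, and neither does the Rpl29 pair.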

How the results depend on the processing

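No paired analysis was possible because each group is 1 library. The 4 mean log2 ratios of the ribosomal protein genes kept their sign under every alternative run. In the order knockout to wild type naive, knockout to wild type SNI, wild-type injury and knockout injury, they were -0.119, -0.364, 0.467 and 0.222 with nuclei thinned to 1000 UMIs, -0.147, -0.325, 0.449 and 0.271 in nuclei with at least 1000 UMIs and 500 genes, and -0.363, -0.277, 0.501 and 0.588 with each library clustered alone. Chosen after seeing the data, all kept nuclei together gave -0.07, -0.188, 0.484 and 0.366, and a total without nucleus-retained RNAs gave -0.372, -0.201 and 0.523 for the contrasts other than wild-type injury. For the last 3 contrasts, predicted doublets kept gave -0.081, 0.262 and 0.474, resolution 0.5 gave -0.069, 0.281 and 0.517, and leaving out the 10 highest members gave -0.155, 0.397 and 0.536. Centring on the median of all genes gave -0.328 in naive tissue and 0.329 for wild-type injury, and equal weight per nucleus gave -0.143 after SNI and 0.339 for wild-type injury. The cause was not tested.

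Members 1.5-fold lower in knockout naive were 1 with the stricter filter and 9 without nucleus-retained RNAs, in place of 3. These were 1.23% and 11.1% of members, below the 15.7% and 19.6% of all genes. After SNI they were 2 at 20 UMIs, 7 thinned, 0 with doublets kept and 3 with the stricter filter, in place of 1. In the same order these were 2.41%, 8.64%, 0% and 3.7% of members, beside 6.52%, 8.58%, 3.14% and 6.88% of all genes. Members 1.5-fold higher after SNI in the wild type were 24 thinned, 4 with doublets kept and 21 with the stricter filter, in place of 11. These were 29.6%, 4.88% and 25.9% of members, beside 8.85%, 4.15% and 7.33% of all genes. In the knockout they were 5 and 7 (thinned and filtered), in place of 28. These were 6.17% and 8.64% of members, below the 11.8% and 12.3% of all genes. Of 231 recomputed values of named members, 186 stayed within the counting interval and 45 moved beyond it. Depth limits Rps27rt, Rpl3l, Rpl39l and Rpl10l, which had 92 UMIs or fewer.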

Other observations

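Outside the 6 classes, 2 clusters had high levels of ribosomal protein genes; both were singled out after their values were seen. In a cluster of 584 nuclei led by Flt1 and Slco1a4, genes of brain endothelium, with Rgs5 of pericytes also among its leading genes, they made up 2.02% of the UMIs without mitochondrial genes. Of 81 members, 78 were at least 1.5-fold above the mean of the 6 classes, with a median log2 difference of 1.13. Of the 14196 genes with 200 UMIs or more, 17.2% were so, with a median of -0.09. Abundant cytoplasmic messages made up 0.824% of the UMIs there beside 0.479% in the 6 classes, and mitochondrial UMIs 1.65% beside 0.794%; their part in these levels was not tested. Rplp1 had 678.8 CPM there beside 330.8 CPM in the 6 classes, and Rplp0 94.7 beside 30.2 CPM.

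The second cluster was led by Actb, Pvalb and Aldoc and held 97, 4790, 5022 and 359 nuclei of the 4 libraries, mostly knockout naive and wild-type SNI. The treatment tag goes against the title for these same 2 libraries, and what sets them apart was not tested. The ribosomal protein share of the cluster was 1.20%, 1.57%, 1.38% and 1.92%. Of 81 members, 73 were at least 1.5-fold above the mean of the 6 classes, with a median of 0.68. Of all genes 10.4% were so, with a median of 0.02. That mean includes both neuronal classes, which had the lowest shares before thinning. An oligodendrocyte-like cluster had 1.38%, 1.05%, 1.72% and 1.6%, above the Actb-led cluster in both wild-type libraries and below it in both knockout libraries. A further oligodendrocyte-like cluster was lower in every library, at 0.896%, 0.724%, 1.13% and 1.03%. Median UMIs per nucleus were 794 in the Actb-led cluster, and 754 and 1103 in these others. The part of depth was not tested. Abundant cytoplasmic messages had 0.784% and mitochondrial UMIs 1.03% in the Actb-led cluster. Wild-type SNI was higher than wild-type naive in 29 of 30 clusters with at least 500 nuclei, and knockout SNI higher than knockout naive in 31 of 31.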
